A study of Mus musculus with 2 samples.

Results

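The genes described here are 10 genes of necroptosis and of the inflammatory caspases: Zbp1, Ripk1, Ripk3, Mlkl, Fadd, Casp8, Gsdmd, Casp1, Casp4 and Casp12. They were chosen by name for what their proteins do, and all 10 were found among the 26082 genes in the files. RNA was measured in fibro/adipogenic progenitors (FAPs), the PDGFRα-positive mesenchymal progenitors that reside in skeletal muscle and can form adipocytes. The cells were primary mouse FAPs, labelled as wild type, and both libraries came from cells labelled as under adipogenic differentiation, in an induction medium of 20% FBS with dexamethasone at 0.25 μM, insulin at 10 μg/ml and IBMX at 0.5 mM. The treated cells received plasmids for overexpression of TGFBR3, a coreceptor of the TGF-β family, and the control cells received the vector. Each group was 1 library of paired 150 nt reads, and neither the number of animals behind it nor the time of collection is given in the labels. The study isolated FAPs from hind limb muscle by antibody staining and cell sorting.

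Necroptosis is a lytic, caspase-independent form of cell death. Sensors and adaptors that carry a RIP homotypic interaction motif (RIPK1, ZBP1 and TRIF, the product of Ticam1) engage the kinase RIPK3, which phosphorylates MLKL, and MLKL then permeabilises the plasma membrane. FADD recruits CASP8, which starts extrinsic apoptosis and, together with cFLIP, holds necroptosis in check. In pyroptosis, another lytic death, CASP1 is activated in inflammasomes and mouse CASP4 by cytosolic lipopolysaccharide, and both cleave GSDMD, whose amino-terminal fragment forms membrane pores. Several of these genes, Zbp1, Mlkl and Casp4 among them, are known as interferon-inducible. Transcript levels do not measure phosphorylation, cleavage or death, none of which was assayed in these files.

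The libraries held 62321027 counts (library labelled TGFBR3 OE, here the OE library) and 83779203 counts (library labelled control). Tgfbr3 itself stood at 36.9 FPKM in the OE library and 35.1 FPKM in the control, a log2 ratio of 0.07 (interval 0.04 to 0.10), so the transfected gene was not seen to differ by more than this and the libraries are named by their labels throughout. Whether transcripts of the plasmid are counted as mouse Tgfbr3 was not tested. The paper also measured TGFBR3 by real-time PCR in FAPs given the plasmid or the vector, which these counts do not replace. FPKM is the count scaled by gene length and by a library total. Changes are log2 ratios of (FPKM + 1), OE library over control, and a gene is counted as higher or lower at 1 or −1, which is 2-fold. With 1 library per group no test is possible, the spread between cultures is unknown, and every interval is an exact Clopper-Pearson interval at the 95% level that covers counting error only. Across 10626 genes that reached 1 FPKM in each library the median log2 ratio was 0.13, so changes of that size are shared with the typical gene.

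Of the 10 genes, 4 were at least 2-fold higher in the OE library (Zbp1, Mlkl, Casp4 and Casp12) and 0 were at least 2-fold lower. Over all 21364 genes with more than 3 counts in at least 1 library, 1.73% were at least 2-fold higher and 0.58% at least 2-fold lower. Restricted to the 11213 genes that averaged 1 FPKM or more over both libraries, which all 10 genes did, the shares were 3.14% and 1.03%. The log2 ratio was above 0 in 9 of the 10 genes and below 0 in Gsdmd alone, against 63.1% above 0 among the 11213. The median of the 10 was 0.81, beside 0.14 over the 11213 genes and 0.06 over all 21364. With all ratios centred on the median gene, the 10 kept 4 higher and 0 lower, where 2.39% and 1.63% of the 11213 genes were. The genes were not independent of one another, and the choice of genes was made with earlier results of these data known.

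**Figure D1:**
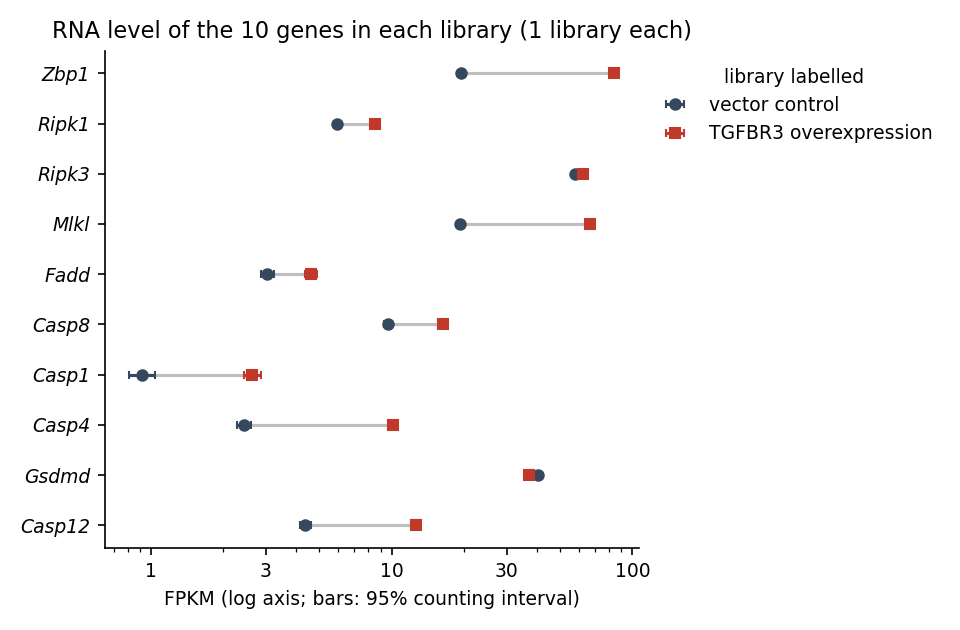
FPKM (log axis) of each of the 10 genes in the library labelled TGFBR3 OE (squares) and the library labelled control, whose cells received the vector (circles), with bars for the 95% counting interval. The gap is wide for Zbp1, Mlkl, Casp4, Casp12 and Casp1, while Ripk3 (62.4 and 57.8 FPKM) and Gsdmd (37.2 and 40.7 FPKM) sit nearly together.

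The sensor of the necroptosis arm showed the largest ratio of the 10. ZBP1 binds nucleic acids in the Z conformation and passes the signal to RIPK3. Zbp1 (ENSMUSG00000027514, chr2:173206612-173218923 on mm10, minus strand) was at 83.5 FPKM from 19999 counts in the OE library and at 19.5 FPKM from 6349 counts in the control. This was a log2 ratio of 2.05 (interval 2.01 to 2.09), or 4.29-fold on the plain FPKM scale, and placed Zbp1 at rank 75 of the 11213 genes ordered from the highest ratio down. It was the single gene of the 10 past 4-fold on the (FPKM + 1) scale.

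MLKL, the executioner pseudokinase of necroptosis, followed. Mlkl (ENSMUSG00000012519, chr8:111311797-111338177, minus strand) was at 66.7 FPKM from 10423 counts in the OE library and at 19.3 FPKM from 4101 counts in the control. Its log2 ratio was 1.74 (interval 1.69 to 1.79), 3.46-fold, at rank 103 of 11213. In the control, the FPKM levels of Zbp1 and Mlkl could not be told apart by their counting intervals, the only such neighbouring pair in the order of levels in either library. In the OE library Zbp1 was the higher of the pair.

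The kinases between sensor and executioner differed less between the libraries. Ripk3 (ENSMUSG00000022221, chr14:55784995-55788865, minus strand) was abundant in both, at 62.4 FPKM (9707 counts) in the OE library and 57.8 FPKM (12252 counts) in the control, with a log2 ratio of 0.11 (interval 0.07 to 0.15), close to the median gene, and at rank 5939. Centred on the median gene, its ratio was −0.02, so its direction depended on the scaling. Ripk1 (ENSMUSG00000021408, chr13:34002363-34037147, plus strand), the kinase and scaffold at TNF receptor 1, was at 8.49 FPKM (4810 counts) in the OE library and 5.91 FPKM (4557 counts) in the control, a log2 ratio of 0.46 (interval 0.41 to 0.51). Its exons overlap those of Serpinb6a on the opposite strand, a gene at 130 FPKM and 123 FPKM, and 8.51% of its 31-base words occur in other genes. Since the strand setting of the counting is not given in the sources used here, reads of this overlap cannot be assigned with certainty.

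The balance of levels among these genes was therefore different in each library. Mlkl stood at 1.07 times the FPKM of Ripk3 in the OE library and at 0.333 times in the control, and Zbp1 at 1.34 and 0.336 times. Ripk3 in turn stood at 7.35 times the FPKM of Ripk1 in the OE library and 9.79 times in the control. Summed over Zbp1, Ripk1, Ripk3 and Mlkl, FPKM came to 221 in the OE library and 102 in the control. Zbp1 and Mlkl alone made up 79.0% of the increase in summed FPKM over all 10 genes, which was 305 FPKM in the OE library and 164 FPKM in the control.

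The pair that links death receptors to caspases stayed short of 2-fold. Casp8 (ENSMUSG00000026029, chr1:58795374-58847503, plus strand), the initiator caspase of extrinsic apoptosis, was at 16.4 FPKM (3212 counts) in the OE library and 9.68 FPKM (2588 counts) in the control, a log2 ratio of 0.70 (interval 0.63 to 0.77). Fadd (ENSMUSG00000031077, chr7:144577318-144582463, minus strand), its adaptor, was at 4.64 FPKM (1229 counts) and 3.05 FPKM (1102 counts), a log2 ratio of 0.48 (interval 0.38 to 0.57). The FPKM of Casp8 was 3.53 times that of Fadd in the OE library and 3.17 times in the control. Of the 31-base words of Casp8, 8.64% occur in other genes, and of those of Fadd 8.73%, where the antisense gene Faddos overlaps an exon.

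Of the inflammatory caspases, Casp4 and Casp12 passed 2-fold and Casp1 lay just short of it, whereas Gsdmd differed little between the libraries. Casp4 (ENSMUSG00000033538, chr9:5308828-5336783, plus strand), the sensor of cytosolic lipopolysaccharide, was at 10.2 FPKM (2561 counts) in the OE library and 2.43 FPKM (836 counts) in the control. Its log2 ratio was 1.70 (interval 1.61 to 1.79), 4.18-fold on the plain scale, at rank 106. Casp12 (ENSMUSG00000025887, chr9:5345430-5373032, plus strand), an inflammatory-type caspase described at the endoplasmic reticulum, was at 12.6 FPKM (3296 counts) and 4.38 FPKM (1556 counts), a log2 ratio of 1.34 (interval 1.27 to 1.42), 2.89-fold, at rank 172.

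Casp1 (ENSMUSG00000025888, chr9:5298517-5307265, plus strand), the caspase of the canonical inflammasome, was the lowest of the 10 in both libraries by deposited FPKM. It was at 2.64 FPKM (563 counts) in the OE library and 0.92 FPKM (268 counts) in the control. On the (FPKM + 1) scale its log2 ratio was 0.92 (interval 0.80 to 1.04), short of the threshold, whereas its plain FPKM ratio was 2.87-fold (interval 2.47 to 3.32). The pseudocount decides this call because the levels are near 1 FPKM. By plain ratio, 5 of the 10 genes were at least 2-fold higher, where 6.53% of 11202 genes were. The deposited FPKM of Casp1 was 52.4% below what its counts and its exon length in GENCODE M21 give in the OE library and 52.5% below in the control. With its counts, the deposited FPKM implies a length of 3143 bases in the OE library and 3152 bases in the control, against 1497 bases in M21. Whether a longer gene model or a different source of counts and FPKM gave this was not tested. For 18 of the 20 FPKM values of the 10 genes, the difference was within 1%. With the deposited counts and the M21 length, Casp1 would stand at 5.54 FPKM and 1.94 FPKM, above Fadd in the OE library and still lowest in the control. Its log2 ratio was then 1.16, and 5 of the 10 genes were at least 2-fold higher, where 3.11% of 11207 genes were. This holds only if the counts of Casp1 fall within its M21 exons, which was not tested. Counts from outside them would make these levels and this ratio too high.

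Gsdmd (ENSMUSG00000022575, chr15:75862327-75867408, plus strand), the pore-forming substrate of CASP1 and CASP4, was at 37.2 FPKM (5995 counts) in the OE library and 40.7 FPKM (8931 counts) in the control. Its log2 ratio was −0.13 (interval −0.17 to −0.08), at rank 8309. Gsdmd stood at 3.66 times the FPKM of Casp4 in the OE library and at 16.7 times in the control. Casp12 and Casp1 kept a ratio of FPKM of 4.79 in the OE library and 4.76 in the control, while that of Casp4 to Casp1 was 3.85 and 2.64, all with the deposited FPKM of Casp1. Summed over Casp1, Casp4 and Casp12, FPKM was 25.4 in the OE library and 7.73 in the control.

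**Figure D2:**
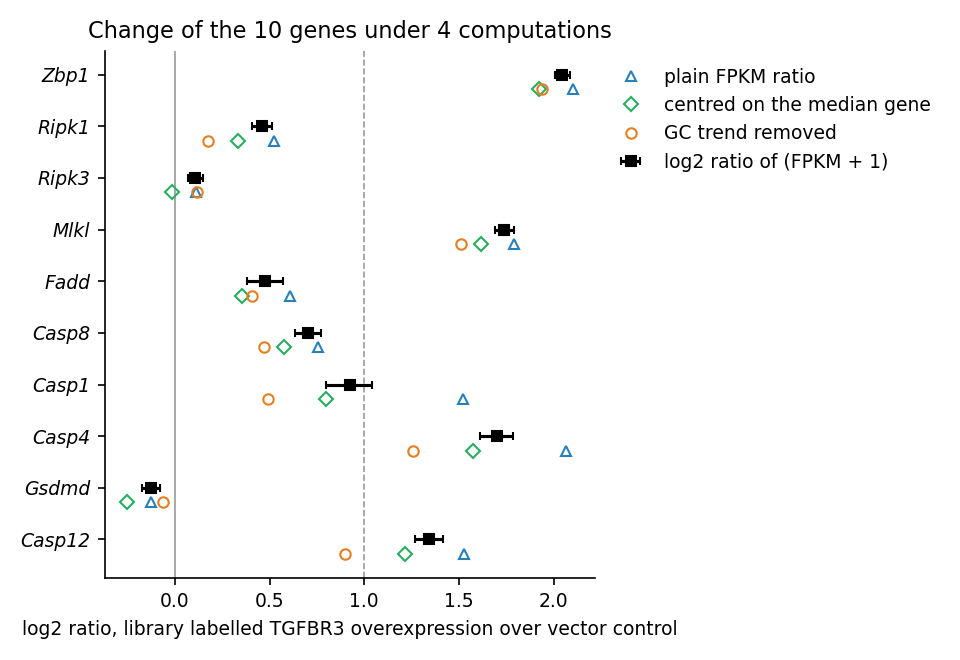
Log2 ratio (OE library over control) of the 10 genes as (FPKM + 1) with its 95% counting interval (black squares), as plain FPKM ratio, centred on the median gene and with the GC trend removed; the dashed line is 2-fold. Zbp1, Mlkl and Casp4 lie past 2-fold in all 4, Casp12 falls to 0.90 with the GC trend removed, and Casp1 lies past it, of these 4, only in the plain ratio.

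Casp1, Casp4 and Casp12 lie in a row on the plus strand of chromosome 9, within 74516 bases (chr9:5298517-5373032), with gaps of 1562 and 8646 bases between them. Within 500 kb on either side, the only other gene with a row in the files was the pseudogene Gm7390, with a log2 ratio of 0.38. The nearest other protein-coding genes were Gria4, 502283 bases away with 6 counts and 36 counts, and Pdgfd, 795552 bases away with a log2 ratio of 0.54. Near Casp8, the neighbouring Cflar, which encodes cFLIP, lay 36490 bases away and had a log2 ratio of 0.62, and Trak2 had 0.71. Rfwd3 beside Mlkl, with 0.69, and Pmepa1 beside Zbp1, with −0.20, did not share the size of the change of Mlkl or Zbp1. On the other side, Fa2h beside Mlkl had 0 counts in both libraries. Pck1 beside Zbp1 had 5 counts in the OE library and 0 counts in the control. These neighbours were picked by position, and no comparison among them was tested.

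The ratio of a gene also moved with the base composition of its exons. Over 20 bins of exon GC content, the median log2 ratio of these 11213 genes went from 0.45 in the bin up to 40.2% GC to −0.25 in the bin from 59.3% GC. Casp12 (36.6% GC), Casp4 (36.7%) and Casp1 (41.1%) are AT-rich, while Ripk3 (53.2%) and Gsdmd (54.6%) are at the other end among the 10. With the trend removed, the log2 ratio was 1.94 for Zbp1, 1.51 for Mlkl, 1.26 for Casp4, 0.90 for Casp12, 0.49 for Casp1, 0.47 for Casp8, 0.40 for Fadd, 0.17 for Ripk1, 0.11 for Ripk3 and −0.06 for Gsdmd. The count of genes at least 2-fold higher was then 3, without Casp12, where 2.13% of 11207 genes were. The median of the 10 was then 0.48. What part the GC trend had in these ratios was not tested beyond this subtraction.

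**Figure D3:**
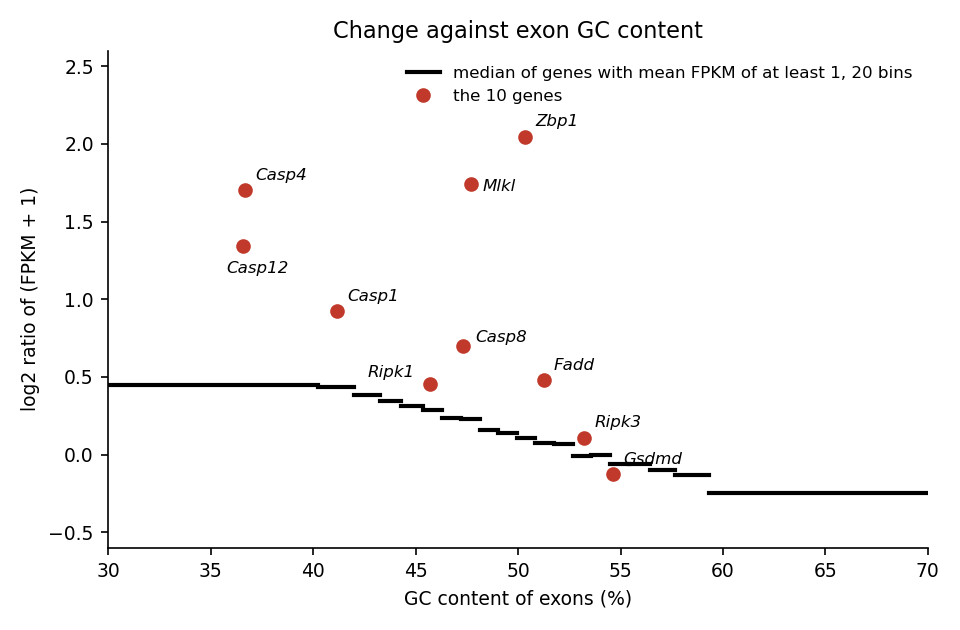
Log2 ratio of (FPKM + 1) against exon GC content (%) for the 10 genes (points), with the median of the 11213 genes that averaged 1 FPKM or more in each of 20 GC bins (black segments). The median falls from 0.45 to −0.25 with rising GC content, and Zbp1, Mlkl, Casp4 and Casp12 lie furthest above it.

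Where the genes stand among all others is seen from their level and ratio together. The counts of the 10 genes ran from 268 to 19999 in a library, so every counting interval is narrow beside the 2-fold threshold except that of Casp1, which spans it. The order of FPKM in the OE library was Zbp1, Mlkl, Ripk3, Gsdmd, Casp8, Casp12, Casp4, Ripk1, Fadd and Casp1, and no neighbouring counting intervals overlapped. In the control the order was Ripk3, Gsdmd, Zbp1 with Mlkl, Casp8, Ripk1, Casp12, Fadd, Casp4 and Casp1. Casp4 and Casp12 thus lay below Ripk1 in the control and above it in the OE library.

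**Figure D4:**
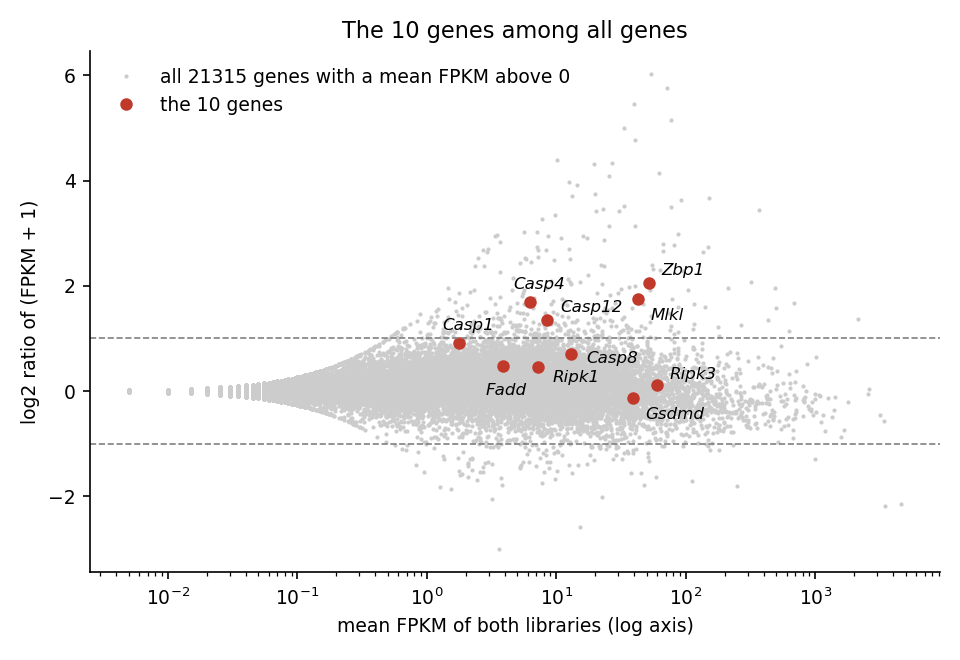
Log2 ratio of (FPKM + 1) against the mean FPKM of both libraries (log axis) for all genes with a mean FPKM above 0 (grey) and the 10 genes (labelled); dashed lines are 2-fold. Zbp1, Mlkl, Casp4 and Casp12 lie above the upper line, and none lies below the lower one.

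Among the receptors and adaptors that feed these genes, 1 gene passed 2-fold. Over all 21364 genes, 1.73% were at least 2-fold higher and 0.58% lower, the shares to set beside this list and those below. Of 11 tested genes for death receptors, their ligands and related receptors, 1 was at least 2-fold higher and 0 lower, with a median log2 ratio of 0.12. This was Tlr3, the endosomal receptor for double-stranded RNA that signals through TRIF, at 5.53 FPKM in the OE library and 1.49 FPKM in the control, a log2 ratio of 1.39 (interval 1.31 to 1.47), which was 0.96 with the GC trend removed. Its adaptor gene Ticam1 was at 11.3 FPKM and 11.3 FPKM, with a log2 ratio of 0.00. Tnfrsf1a, the main TNF receptor, was at 94.6 FPKM and 115 FPKM, a log2 ratio of −0.28, and Fas at 34.5 FPKM and 25.1 FPKM, a log2 ratio of 0.45. Tnf and Tnfsf10 lay at 0.26 FPKM or below in both libraries, too low to pass 2-fold on the (FPKM + 1) scale.

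Among 25 genes of the RIPK1 complex and its ubiquitin regulators, 0 were at least 2-fold higher or lower, 18 were above 0, and the median log2 ratio was 0.40. Tnfaip3, which encodes the ubiquitin-editing protein A20, came closest, at 5.14 FPKM and 2.25 FPKM with a log2 ratio of 0.92. Birc2, an inhibitor of apoptosis protein that ubiquitinates RIPK1, was at 5.78 FPKM and 2.91 FPKM, a log2 ratio of 0.79. Cflar was at 12.3 FPKM and 7.66 FPKM, a log2 ratio of 0.62, near the 0.70 of its partner Casp8 on this scale. With the GC trend removed the values were 0.28 for Cflar and 0.47 for Casp8. With the exon length trend removed they were 0.29 and 0.70.

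The inflammasome sensors were scarce. Of 16 tested genes for inflammasomes and pyroptosis, 0 were at least 2-fold higher or lower on the (FPKM + 1) scale, and the median log2 ratio was 0.18. Nlrp3, Nlrc4, Naip2, Naip5, Aim2, Il1a and Il1b lay at 0.70 FPKM or below in both libraries. At such levels the pseudocount of 1 keeps a gene short of 2-fold whatever its counts. By plain FPKM ratio, 6 of 15 were at least 2-fold higher and 1 lower, where 14.1% of 17952 genes were higher and 844 genes lower. Nlrp3 was at 0.43 FPKM from 118 counts in the OE library and 0.20 FPKM from 74 counts in the control, a log2 ratio of 0.25. Pycard, the adaptor ASC that joins sensors to CASP1, was at 3.40 FPKM and 3.26 FPKM, a log2 ratio of 0.05 (interval −0.05 to 0.15). Il18, a cytokine that CASP1 matures, was at 2.86 FPKM (201 counts) and 1.21 FPKM (116 counts), a log2 ratio of 0.80.

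Of 12 genes for the apoptotic caspases and the apoptosome, 0 were at least 2-fold higher or lower, with 7 above 0, 5 below, and a median log2 ratio of 0.30. Casp9, the initiator of the mitochondrial pathway, was at 2.77 FPKM and 2.91 FPKM, a log2 ratio of −0.05 (interval −0.14 to 0.04). Over these 4 lists, 1 of 64 tested genes was at least 2-fold higher (Tlr3) and 0 were lower. This is near the shares over all 21364 genes, 1.73% higher and 0.58% lower. The median over the 4 lists was 0.26, or 0.05 with the GC trend removed. By plain FPKM ratio, 10 of 62 were at least 2-fold higher, 6 of them with a mean FPKM under 1, and 1 was lower, where 14.1% of 17952 genes were higher. At a 1.5-fold threshold on the (FPKM + 1) scale 14 of 64 were higher, where 7.89% of all 21364 genes and 13.3% of the 11213 were.

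Interferon-response genes were higher in the OE library too. Of 12 such genes, 11 were at least 2-fold higher in the OE library and 0 lower, where 1.73% and 0.58% of all 21364 genes were. Their median log2 ratio was 2.74, from 0.71 for Irf1 to 4.08 for Cxcl10. The largest value among the 10, 2.05 for Zbp1, lay close to the 2.08 of Isg15. Whether these genes and the 10 respond to one signal was not tested.

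**Figure D5:**
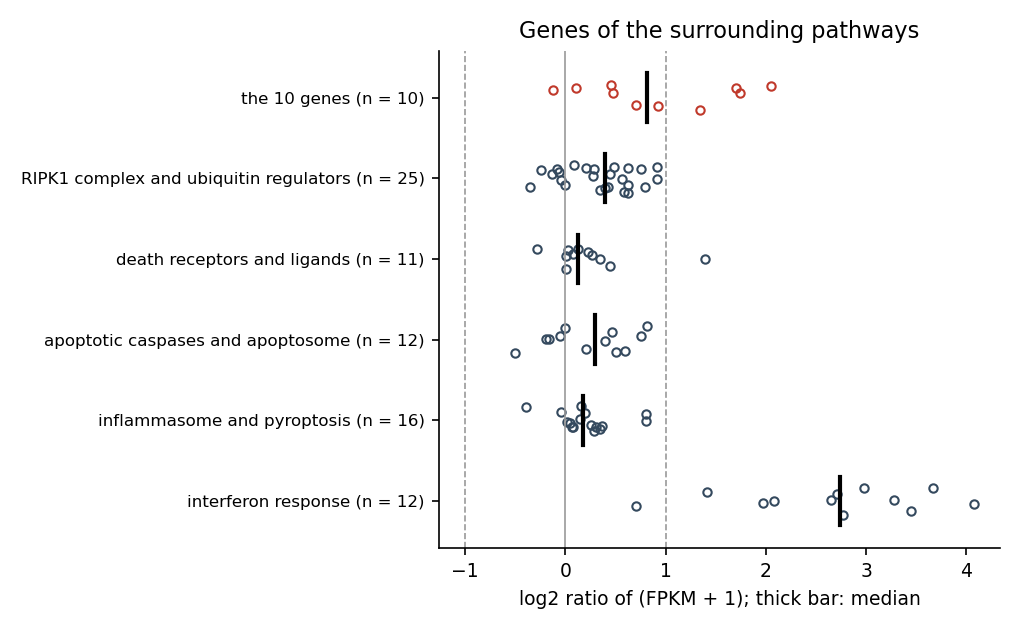
Log2 ratio of (FPKM + 1) of each tested gene in the 10 genes and 5 fixed lists, spread vertically for display, with the median as a thick bar and dashed lines at 2-fold. The interferon-response genes lie furthest right (median 2.74), the 10 genes next (0.81), and the other lists centre between 0.12 and 0.40.

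The promoters of the genes were read for letters of known interferon-related motifs, because Zbp1, Mlkl and Casp4 are known as interferon-inducible. RefSeq promoters on GRCm38.p6, from 250 bases before to 50 bases after a start, were held for 8 of the 10 genes, in 10 entries. Zbp1 and Gsdmd had no entry and were not searched. The IRF-type motif GAAANNGAAA, on both strands, occurred in 3.44% of all 32851 promoters, and the palindromic GAS motif TTCNNNGAA in 8.3%. Both motifs were in 0.454%. Of the 8 genes, Ripk1 had an IRF-type match and Ripk1 and Casp12 had GAS matches.

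Below are the promoters of Casp12 (chr9:5345226-5345525, plus strand) and of the second start of Ripk1 (chr13:34002624-34002923, plus strand), shown because they hold all the matches, which stand in capitals, and those of Mlkl (chr8:111338156-111338455, minus strand) and Casp4 (chr9:5308599-5308898, plus strand), shown because these genes were among the 4 higher ones and had none.
Casp12: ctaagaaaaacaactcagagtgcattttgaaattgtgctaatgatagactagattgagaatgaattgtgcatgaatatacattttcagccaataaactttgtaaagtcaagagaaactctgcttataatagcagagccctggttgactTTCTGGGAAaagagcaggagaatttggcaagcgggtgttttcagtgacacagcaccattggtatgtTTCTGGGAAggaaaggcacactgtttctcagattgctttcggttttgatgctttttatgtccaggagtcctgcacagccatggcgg
Ripk1: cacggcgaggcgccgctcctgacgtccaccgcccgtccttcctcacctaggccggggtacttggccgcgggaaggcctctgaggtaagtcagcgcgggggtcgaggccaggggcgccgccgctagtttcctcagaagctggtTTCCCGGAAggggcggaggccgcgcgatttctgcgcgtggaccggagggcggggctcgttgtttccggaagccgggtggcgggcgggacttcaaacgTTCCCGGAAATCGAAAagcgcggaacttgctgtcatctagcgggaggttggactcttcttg
Mlkl: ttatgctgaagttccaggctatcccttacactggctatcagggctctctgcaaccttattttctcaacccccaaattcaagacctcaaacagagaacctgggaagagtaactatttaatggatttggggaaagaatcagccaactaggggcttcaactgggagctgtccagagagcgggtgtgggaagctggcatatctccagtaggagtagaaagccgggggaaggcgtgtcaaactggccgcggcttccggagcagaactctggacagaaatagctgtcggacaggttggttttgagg
Casp4: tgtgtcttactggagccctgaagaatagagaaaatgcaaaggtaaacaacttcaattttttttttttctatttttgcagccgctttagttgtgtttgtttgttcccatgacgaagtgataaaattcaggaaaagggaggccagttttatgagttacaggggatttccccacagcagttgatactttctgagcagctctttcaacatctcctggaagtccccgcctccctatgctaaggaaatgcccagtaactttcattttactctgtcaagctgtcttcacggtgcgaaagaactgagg

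In Casp12 the capitals are 2 GAS matches at −102 to −94 and −36 to −28 from the start. In Ripk1 they are GAS matches at −108 to −100 and −11 to −3 and an IRF-type match at −5 to 5, which overlaps the second GAS match. A match is a description of letters, and its absence says only that these letters are not in this window. The log2 ratio was 1.34 for Casp12 and 0.46 for Ripk1, which had matches, and 1.74 for Mlkl and 1.70 for Casp4, which had none.

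Markers of other cells that could bring these genes were low or had 0 counts. Of 9 macrophage genes, Adgre1, Tyrobp and Fcer1g had 0 counts in both libraries, and Ptprc had 0 counts and 4 counts. Csf1r was at 0.46 FPKM (182 counts) in the OE library and 0.39 FPKM (210 counts) in the control. C1qb had 20 counts and 0 counts, Laptm5 35 counts and 19 counts, and C1qa 0 counts and 8 counts. The macrophage list summed to 0.91 FPKM (244 counts) in the OE library and 0.54 FPKM (245 counts) in the control. The endothelial list summed to 2.16 FPKM and 2.05 FPKM, with Tek at 1.04 FPKM and 1.09 FPKM. Within it, Kdr had 262 counts in the OE library and 65 counts in the control, and Cdh5 165 counts and 328 counts. The muscle list, with 3 of its 6 genes among the 26082, summed to 0.50 FPKM and 0.55 FPKM. Of the T and NK cell markers, Nkg7 had 0 counts in both libraries, and the other 5 were not among the 26082 genes. Of the 8 FAP markers, 3 had a ratio above 0 and 5 below, and the list summed to 2025 FPKM and 2407 FPKM. Pdgfra was at 30.5 FPKM and 32.6 FPKM and Ly6a at 1013 FPKM and 706 FPKM, whereas Lum was nearly absent, at 0.27 FPKM and 0.03 FPKM. Col3a1 was at least 2-fold lower in the OE library, at 95.8 FPKM and 199 FPKM with a log2 ratio of −1.05, and Col1a1 (−0.89), Gsn (−0.55) and Cd34 (−0.30) lay below 0 without passing it. Adipocyte markers moved with the groups too: the 4 in the files summed to 22.7 FPKM in the OE library and 55.3 FPKM in the control, and Adipoq and Cfd were at least 2-fold lower. The part of FAP and adipocyte markers in the values of the 10 genes was not tested. In bulk RNA, more cells with a transcript and more transcript per cell cannot be told apart.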

How the data were processed

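RNA of 1 library per group was sequenced with poly(A) selection and dUTP marking of the second strand, per the labels. The authors deposited, for each gene and library, the raw count and an FPKM value rounded to 2 decimals. The paper names STAR and FeatureCounts on mm10, whereas the submitters' processing notes name cutadapt 1.9, HISAT2 2.2.1, StringTie 2.1.6, DESeq2 and edgeR. Which of these made the files, the annotation release and the strand setting of the counting are not given in the sources used here. Deposited counts summed to 62321027 and 83779203.

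From these files, log2 ratios of (FPKM + 1) were computed, the pseudocount being 1 and the threshold 2-fold. Counts served for the exact Clopper-Pearson intervals at the 95% level and for the floor of 3 counts. Intervals cover counting error only and treat each count as independent, so they are too narrow where several reads came from the same molecule. No count model was run, because 1 library per group gives no spread. Exon positions, lengths, GC content and 31-base words came from GENCODE M21 on mm10, which holds 99.7% of the gene identifiers, and promoters from RefSeq. The calculation was tested on simulated data. Python 3.11.15, pandas 2.3.3, numpy 2.4.6, scipy 1.17.1 and matplotlib 3.10.9 were used.

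The 10 genes, the lists and the measure were chosen with earlier results of these data known. All 10 genes are named. From every other list, genes past 2-fold (up to 6) and at most 3 textbook partners of one of the 10 are named, and neighbours, markers and interferon-response examples are named as context. Some genes that this rule allows are not reported here. Alternatives were other pseudocounts, plain ratios, CPM from the counts, centring, removal of the trends over GC content and exon length, other thresholds, and, chosen after seeing the data, FPKM with M21 gene lengths.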

Additional observations from a re-analysis of the deposited data

How the results depend on the processing

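Of 90 values of the 10 genes over 9 alternatives, 0 called values changed direction, 46 stayed within their counting interval and 44 moved past it. The count of the 10 genes at least 2-fold higher, 4, became 1 (Zbp1) at a 4-fold threshold. It became 3 with the GC trend removed, without Casp12. It became 5, adding Casp1, with a pseudocount of 0.1, with plain FPKM or CPM ratios, and with CPM and a pseudocount of 1. By plain FPKM ratio, 6.53% of 11202 genes were at least 2-fold higher. Shares over all genes at 4-fold, with a pseudocount of 0.1 and with CPM are not given here. The counts under those settings therefore cannot be set against one. M21 gene lengths, an alternative chosen after seeing the data, also gave 5 with Casp1, if the counts of Casp1 fall within its M21 exons. At a 1.5-fold threshold it was 6, where 13.3% of the 11213 genes were higher. Over the alternatives the log2 ratio ran from 1.92 upwards for Zbp1, 1.51 to 1.79 for Mlkl, 1.26 to 2.06 for Casp4, 0.90 to 1.53 for Casp12 and 0.49 to 1.52 for Casp1. Ripk3 ran from −0.02 to 0.11. The count of surrounding pathway genes at least 2-fold higher, 12 of 76, of which 11 were interferon-response genes, became 21 of 74 with plain FPKM ratios, 19 of 74 with plain CPM ratios and 26 of 76 at 1.5-fold. Over all tested genes, 1.73% passed at 2-fold on the (FPKM + 1) scale, 14.1% by plain FPKM ratio and 7.89% at 1.5-fold. The count lower, 0, became 1 with plain FPKM and 1 with plain CPM ratios, in each case by Nlrc4 with 7 counts and 21 counts. Centring on the median gene moved the split over the 11213 genes from 352 higher and 116 lower to 268 higher and 183 lower, while the 10 genes kept 4 higher and 0 lower. Leaving out a library was not possible with 1 per group. No paired analysis was possible because each group had 1 library and the labels give no replicate numbers. Depth limits Casp1 most, with 268 counts in the control. What sets these differences was not tested.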

Other observations

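Several ligands and sensors of these pathways were scarce, and their ratios on the (FPKM + 1) scale were small because their FPKM lay far below the pseudocount of 1. They were chosen here after their values were seen. Tnf had 29 counts in the OE library and 8 counts in the control, a ratio of CPM (counts scaled to the library total) of 4.87 (counting interval 2.17 to 12.3). Il1a had 24 counts and 6 counts, a ratio of 5.38 (interval 2.14 to 16.1). Aim2, a sensor of cytosolic DNA, had 82 counts and 33 counts, a ratio of 3.34. Tnfsf10, the ligand TRAIL, had 31 counts and 0 counts, and Il1b had 7 counts and 0 counts. With the floor of 3 counts put in place of 0 in the control, their ratios of CPM would be 13.9 and 3.14. These values leave out counting error and are not lower bounds. Both genes passed the floor through the OE library alone. Tnf, Il1a, Aim2, Tnfsf10 and Il1b all lay under 0.5 FPKM in both libraries, and all were higher in the OE library. Nlrc4, an inflammasome gene as scarce, went the other way, with 7 counts in the OE library and 21 counts in the control. By plain FPKM ratio, 14.1% of 17952 genes were at least 2-fold higher. Ninj1, whose protein drives rupture of the plasma membrane late in lytic death, was abundant and slightly lower in the OE library, at 41.1 FPKM and 54.4 FPKM, a log2 ratio of −0.39 (interval −0.45 to −0.34).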
